A study of Mus musculus with 10 samples.

Results

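The genes described here are 10 components of the Notch pathway in OP9 stromal cells, chosen by name: the receptors *Notch1*, *Notch2* and *Notch3*, the ligands *Jag1*, *Jag2* and *Dll1*, the target genes *Hes1*, *Hey1* and *Heyl*, and the nuclear coactivator *Maml3*. They were chosen with earlier results of these data known. All 10 were found by symbol among the 26888 genes of the expression table. RNA-seq was available for 10 libraries, 6 from OP9 reaggregates and 4 from flat cultures submersed in medium. Reaggregates were cells brought together and kept for 48 h on a nitrocellulose membrane where liquid meets gas, 3 of them (reaggregates 2, 4 and 6) with IL-3, at a dose labelled 200 µg/µl, and 3 (1, 3 and 5) without it. The labels name the de Bruijn lab for flat cultures 2 and 4, whereas flat cultures 1 and 3 and the reaggregates carried no label of their source. The study's methods say that cells for flat culture came from the Medvinsky group or the de Bruijn group, so the unlabelled flat cultures may be those of the former, but they were not assigned to it here. OP9 is a mouse line from calvaria of the strain (C57BL/6xC3H)F2-op/op, in which macrophage colony-stimulating factor is not functional, and every library came from it. The study's methods describe dissociation of reaggregates with collagenase and dispase before RNA extraction, but no such step for flat cultures. Reaggregation and this step therefore cannot be told apart. The question addressed was how expression differed after reaggregation in a stromal line that supports maturation of blood stem cells.

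In Notch signaling, a ligand of the Jagged or Delta-like family on the surface of one cell binds a Notch receptor on its neighbour. The receptor is then cut by the metalloprotease ADAM10 and by γ-secretase, and its intracellular domain enters the nucleus, where it joins the DNA-binding protein RBPJ and a Mastermind-like coactivator to switch on genes of the HES and HEY families. Blood-forming tissue uses the pathway during the emergence of stem cells from the aorta.

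Expression was given in RPM, a gene's reads scaled to 1e6 reads assigned to genes in that library. Sequencing depth on genes ran from 7.35 to 9.43 M (M, 1e6 reads), estimated from the commonest value above 0 taken as 1 read, and the floor of 3 reads stood at 0.318 to 0.408 RPM depending on the library, counting error alone considered. By the labels, reaggregates with and without IL-3 were separate cultures, as were flat cultures labelled de Bruijn and the others. Nothing in the labels says that libraries alike in these labels came from separate cultures. The p-values therefore measure the spread between these libraries, which may be partly technical. Reaggregates 1 and 2, 3 and 4, and 5 and 6 resembled each other more than other reaggregates did, with a root mean square difference across tested genes of 0.282 to 0.291 on the log2 scale, against 0.530 to 0.764 for the other pairs. Flat cultures whose source labels differed lay further apart, at 1.01 to 1.16, than both cultures labelled de Bruijn, at 0.505, or both without a source label, at 0.725. Results are therefore also given with consecutive reaggregates averaged and against each kind of flat culture. The markers checked the labelled cell type: summed RPM of 9 stromal markers, among them the collagen gene *Col1a1*, lay between 35957 and 44672 in reaggregates and between 15029 and 31570 in flat cultures, while *Thy1* was at or near 0 and 7 endothelial markers summed to at most 1.64 RPM. Of the 8 stromal markers tested, 6 were called higher in reaggregates by the limma fit described below, beside 7.32% of all genes tested. With consecutive reaggregates averaged 3 were called (*Pdgfra*, *Pdgfrb* and *Lum*), beside 1.9% of all genes tested. *Vim* averaged 4540 RPM in reaggregates and 6622 RPM in flat cultures and was not called. The part of the stromal markers in the results was not tested. Blood cell markers summed to between 3.09 and 7.56 RPM in reaggregates and between 2.28 and 8.43 RPM in flat cultures, mostly from *Cd68*, which also occurs outside blood cells, while *Itgam* was at most 0.683 RPM and *Ptprc* and *Cd3e* were at 0 in all libraries. In bulk RNA, more cells of a kind and more RNA per cell cannot be told apart.

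Of the 10 genes, *Jag1*, *Notch3*, *Notch2*, *Notch1* and *Hes1* were the most abundant per kb of exon, and 8 of the 9 that could be tested rose on reaggregation, whereas none fell. A call required that expression changed by 2-fold or more, together with p no higher than 0.05 after Benjamini-Hochberg adjustment (limma on log2(RPM + 0.5)), and 7.32% of the 16933 genes tested were called higher in reaggregates and 6.53% lower. All 9 had a log2 fold change above 0, as did 51.7% of all genes tested. The median log2 fold change was 1.52 for the 9 genes and 0.04 for all genes tested. Because the genes were chosen with earlier results known, the counts and medians in this paragraph do not test the pathway as a whole. Of 46 further pathway genes tested, 5 were called higher and 1 lower, with a median log2 fold change of 0.48. *Hey1* did not pass, and *Heyl* was too low to test. Every reaggregate lay above every flat culture for 5 of the 9, *Notch2*, *Jag1*, *Dll1*, *Hes1* and *Maml3*, a separation found in 7.8% of all genes tested. The opposite separation, found in 11.4% of all genes tested, occurred in none of the 9. With consecutive reaggregates averaged to 3 samples, 3 of the 9 remained called, *Notch2*, *Hes1* and *Maml3*, beside 1.9% of all genes tested that were called higher. Log2 fold changes on this scale understate the change of genes with low RPM.

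**Figure D1:**
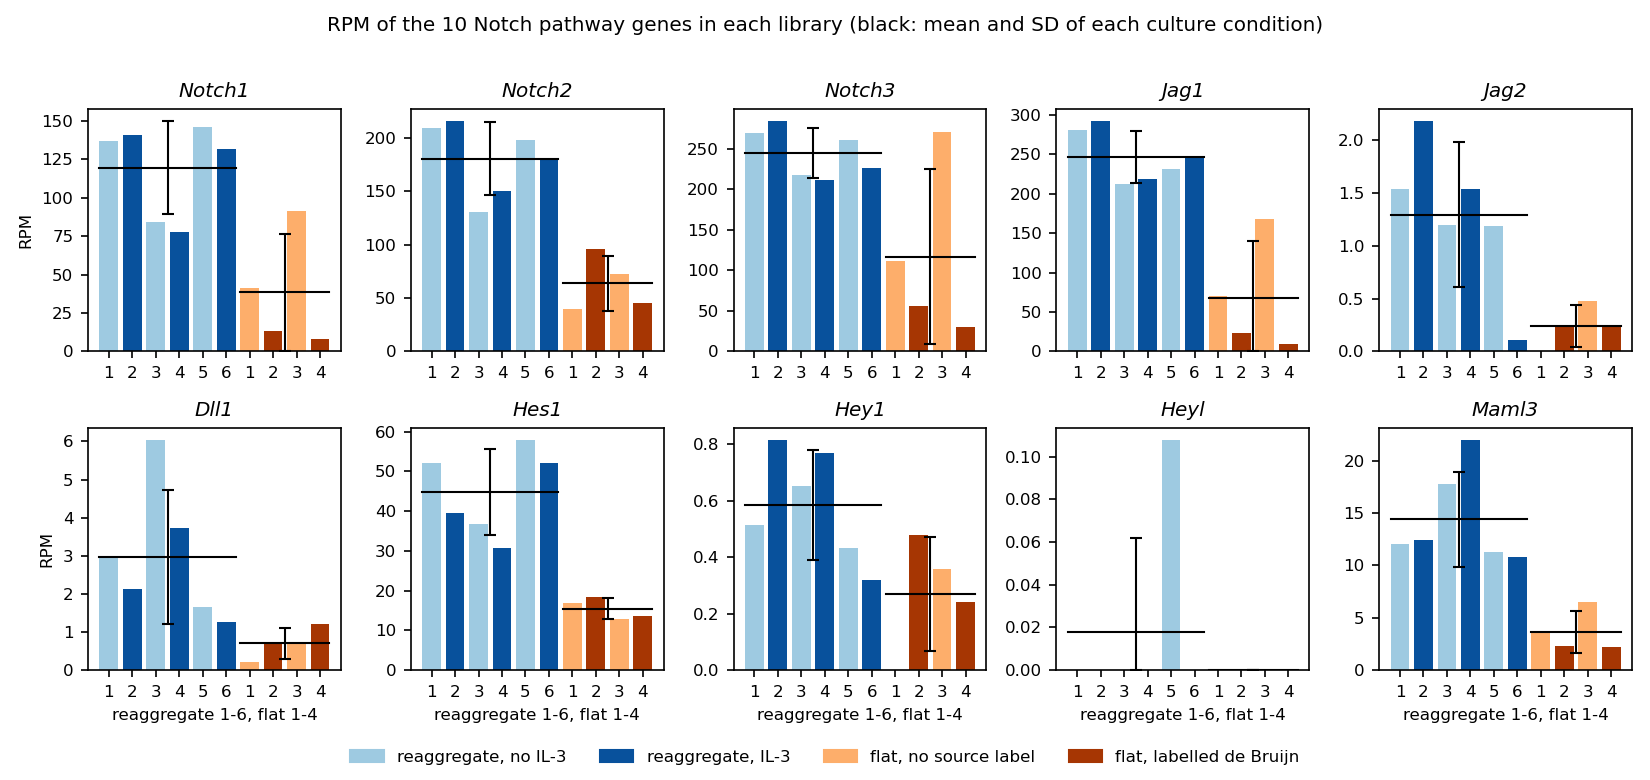
RPM (linear axis from 0, a different scale for each gene) of the 10 genes in reaggregates 1 to 6 and flat cultures 1 to 4, with bars coloured by IL-3 and source label, and a black line and bar for the mean and SD of each condition, drawn down to 0 where the SD passes it. *Notch2*, *Jag1*, *Dll1*, *Hes1* and *Maml3* show no flat culture as high as any reaggregate, while *Notch3* in flat culture 3 stands at 270 RPM, above 5 of the 6 reaggregates.

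The sequence before the start site is shown for the receptors and for *Jag1*, the most abundant ligand. Start sites were taken from RefSeq on the assembly GRCm38.p6, in which 7 of the 10 genes were matched and *Hes1*, *Hey1* and *Heyl* were not. The 250 bases before the start are printed 5′ to 3′ on the strand of the gene, and capitals mark the GC box, GGGCGG or its complement CCGCCC, a string bound by SP1 and its relatives.
Notch1, chr2:26503823-26504072, minus strand: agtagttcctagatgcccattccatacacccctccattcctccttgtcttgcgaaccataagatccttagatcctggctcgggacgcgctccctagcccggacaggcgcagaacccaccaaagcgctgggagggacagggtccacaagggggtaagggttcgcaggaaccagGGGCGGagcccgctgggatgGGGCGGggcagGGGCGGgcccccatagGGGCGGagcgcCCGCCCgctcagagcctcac
Notch2, chr3:98013288-98013537, plus strand: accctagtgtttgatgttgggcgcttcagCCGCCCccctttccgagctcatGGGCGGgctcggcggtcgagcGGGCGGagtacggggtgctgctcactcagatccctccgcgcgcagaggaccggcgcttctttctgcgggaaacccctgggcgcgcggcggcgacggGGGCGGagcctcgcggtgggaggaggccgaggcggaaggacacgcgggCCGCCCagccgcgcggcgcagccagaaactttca
Notch3, chr17:32166891-32167140, minus strand: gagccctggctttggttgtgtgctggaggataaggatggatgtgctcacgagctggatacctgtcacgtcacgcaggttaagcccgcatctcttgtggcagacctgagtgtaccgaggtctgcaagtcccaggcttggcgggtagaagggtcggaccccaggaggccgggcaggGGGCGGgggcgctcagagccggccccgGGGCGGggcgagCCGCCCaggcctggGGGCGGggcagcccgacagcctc
Jag1, chr2:137116521-137116770, minus strand: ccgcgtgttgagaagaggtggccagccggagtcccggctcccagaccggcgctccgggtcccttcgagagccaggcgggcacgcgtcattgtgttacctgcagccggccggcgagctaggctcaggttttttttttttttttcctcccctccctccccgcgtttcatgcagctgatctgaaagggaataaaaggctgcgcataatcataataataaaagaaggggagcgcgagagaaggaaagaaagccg
The windows of *Notch1* and *Notch2* each held 5 GC boxes and that of *Notch3* held 4, whereas that of *Jag1* held none. Among the genes not printed, *Jag2* held 5 (2 of them overlapping), and *Dll1* and *Maml3* held none. A GC box was present in 32.7% of all 32851 windows of the same length. The string GTGGGAA, to which RBPJ binds, and its complement TTCCCAC, which cannot lie within a GC box, were found in none of the members' windows and in 5.42% of all windows. GC content ranged from 56.0% to 87.2% in the members' windows, against a median of 52.4% in all windows. Such matches describe letters in the window and not binding.

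Of the receptors, *Notch2*, a large transmembrane receptor encoded on chr3:97817461-97954290 (NCBIM37, as all gene coordinates here), was higher in every reaggregate. It measured 131 RPM in the lowest reaggregate, 189 in the median and 216 in the highest. In flat cultures 1 to 4 it measured 40.1, 96.4, 72.7 and 45.7 RPM. The groups did not overlap, and reaggregates 3 and 4 were the lowest of their group. Mean expression was 181 ± 33.9 RPM (SD, n = 6) after reaggregation and 63.7 ± 26 RPM (SD, n = 4) in flat ones. The log2 fold change was 1.56 (limma SE 0.25, adjusted p = 0.00136, exact permutation p = 0.00476 over 210 splits, the smallest that these splits can give, with 9 genes tested in this way). These splits, here and below, treat consecutive reaggregates as independent, although limma estimated a correlation of 0.906 between them. *Notch2* stayed called in all 27 alternative settings, with log2 fold changes of 1.37 to 1.79. With consecutive reaggregates averaged the adjusted p in limma was 0.0358.

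*Notch1*, on chr2:26313423-26372183, the receptor best known from T cell commitment, rose on average but varied widely between flat cultures. Reaggregates measured between 77.8 and 146 RPM, with a median of 134.5. Flat cultures 1 to 4 measured 41.4, 13.6, 91.3 and 8.06 RPM. Flat culture 3 lay above reaggregates 3 and 4, so that the groups overlapped, and the lowest values were those of the flat cultures labelled de Bruijn. Reaggregates averaged 120 ± 30.4 RPM (SD, n = 6) against 38.6 ± 38.0 RPM in flat cultures (SD, n = 4), with a log2 fold change of 2.16 (limma SE 0.54, adjusted p = 0.0135, exact permutation p = 0.0143). The log2 fold change was 2.76 without flat culture 3 and 1.62 without flat culture 4. The call was lost with consecutive reaggregates averaged (limma adjusted p = 0.112).

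*Notch3*, on chr17:32257765-32303825, a receptor known from vascular smooth muscle and pericytes, was the most abundant receptor per kb of exon in the 6 reaggregates and in flat cultures 1 and 3, but lay below *Notch2* in flat cultures 2 and 4. Its reaggregate values ran from 211 to 284 RPM with a median of 243. Flat cultures 1 to 4 measured 112, 55.8, 270 and 29.9 RPM. Flat culture 3 lay within the range of the reaggregates and the 3 others lay below it. Reaggregates averaged 244.5 ± 30.4 RPM (SD, n = 6) against 117 ± 108 RPM in flat cultures (SD, n = 4), with a log2 fold change of 1.52 (limma SE 0.46, adjusted p = 0.0299, exact permutation p = 0.0286). This call rested on single libraries and was lost without reaggregate 1, reaggregate 2, flat culture 2 or flat culture 4 (limma adjusted p = 0.0583, 0.0597, 0.0815 and 0.0867, in that order). The log2 fold change was then 1.49, 1.47, 1.32 and 1.02, in the same order. Without flat culture 3 it was 2.08 (limma adjusted p = 0.000778). With consecutive reaggregates averaged the adjusted p in limma was 0.169.

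**Figure D2:**
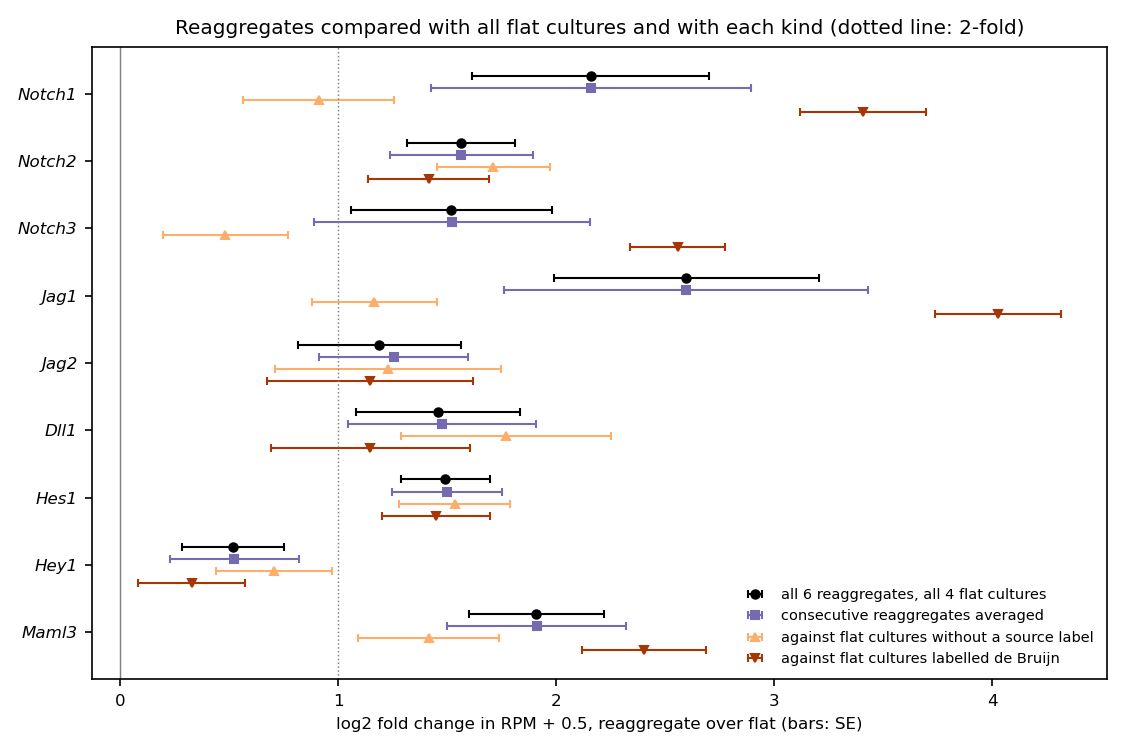
Log2 fold change in RPM + 0.5 (x axis) of the 9 genes tested, reaggregates over flat cultures, with bars for the SE, for all libraries, for consecutive reaggregates averaged, and against each kind of flat culture, and a dotted line at 2-fold. *Notch2* and *Hes1* give similar values in all comparisons (1.41 to 1.71 and 1.45 to 1.53), whereas *Jag1* gives 1.16 against flat cultures without a source label and 4.03 against those labelled de Bruijn.

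Among the ligands, *Jag1*, on chr2:136907192-136942380, encoding Jagged 1, had the largest log2 fold change of the 9 tested with all libraries on the log2(RPM + 0.5) scale, though not against the flat cultures without a source label, nor by the ratio of mean RPM (3.64, against 5.38 for *Jag2*, 4.24 for *Dll1* and 3.94 for *Maml3*). Reaggregates measured between 212 and 292 RPM, with a median of 238.5. Flat cultures 1 to 4 measured 70.6, 23.4, 168 and 8.99 RPM. No flat culture reached the lowest reaggregate, although flat culture 3 came close and flat culture 4 was far below the rest. Reaggregates averaged 247 ± 33.2 RPM (SD, n = 6) against 67.7 ± 71.8 RPM in flat cultures (SD, n = 4), with a log2 fold change of 2.60 (limma SE 0.61, adjusted p = 0.00981, exact permutation p = 0.00476, the smallest that the splits can give). The size of the change rested on single flat cultures, with a log2 fold change of 3.28 without flat culture 3 and 1.90 without flat culture 4. With consecutive reaggregates averaged the call was lost (limma adjusted p = 0.10).

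*Dll1*, on chr17:15504318-15513836, encoding Delta-like 1, was expressed near the limit of detection. Reaggregates measured between 1.27 and 6.05 RPM, with a median of 2.53, and flat cultures 1 to 4 measured 0.201, 0.676, 0.709 and 1.21 RPM. The groups did not overlap, but the lowest reaggregate and the highest flat culture were close, and the estimated reads were 151 over all reaggregates and 23.3 over all flat cultures. The log2 fold change was 1.46 (limma SE 0.38, adjusted p = 0.0151, exact permutation p = 0.00952), and the call was lost with consecutive reaggregates averaged (limma adjusted p = 0.0808). With pseudocounts of 0.1 and 2 in place of 0.5 the log2 fold change was 1.93 and 0.82, the latter under 2-fold. An opposite-strand lincRNA covered 20.55% of its exon bases. Whether the counting used strand is not stated, so reads of the lincRNA cannot be told from those of *Dll1*. Opposite-strand lincRNAs covered smaller parts of *Notch1* (7.5% and 2.91%) and of *Notch3* (6.07%).

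*Jag2*, on chr12:114146801-114167706, encoding the second Jagged ligand, was lower still. Reaggregates measured between 0.106 and 2.18 RPM, with a median of 1.37, and flat cultures 1 to 4 measured 0, 0.239, 0.479 and 0.243 RPM. Reaggregate 6, with an estimated 1 read, fell among the flat cultures, while the other 5 reaggregates lay above them. The log2 fold change was 1.19 (limma SE 0.37, adjusted p = 0.0344, exact permutation p = 0.0381). The estimate rested on 63.1 reads in reaggregates and 8.01 in flat cultures, and 1 of the 4 flat cultures reached 3 reads. The call was kept in only 2 of the 10 fits that each left out a library, those without reaggregate 6 and without flat culture 3, and in the others the adjusted p in limma was between 0.0534 and 0.0895. With a pseudocount of 1 the log2 fold change fell to 0.83, under the 2-fold threshold. With consecutive reaggregates averaged the adjusted p in limma was 0.0701.

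Among the target genes, *Hes1*, on chr16:30064470-30067882, a transcriptional repressor that Notch and other signals switch on, was higher in every reaggregate. It measured 30.7 RPM in the lowest reaggregate, 45.7 in the median and 58 in the highest. In flat cultures 1 to 4 it measured 16.9, 18.3, 12.9 and 13.5 RPM. The groups did not overlap, and the flat cultures lay close together whatever their source label. Reaggregates averaged 44.8 ± 10.7 RPM (SD, n = 6) against 15.4 ± 2.62 RPM in flat cultures (SD, n = 4), with a log2 fold change of 1.49 (limma SE 0.20, adjusted p = 0.00062, exact permutation p = 0.00476, the smallest that the splits can give). *Hes1* stayed called in all 27 alternative settings, with log2 fold changes of 1.33 to 1.63, and its adjusted p in limma was 0.0184 with consecutive reaggregates averaged.

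*Hey1*, on chr3:8663362-8667039, a related repressor of the HEY family, was measured at a few reads per library. It ranged from 0.319 to 0.817 RPM in reaggregates, with a median of 0.583, and stood at 0, 0.477, 0.359 and 0.243 RPM in flat cultures 1 to 4. The ranges overlapped, and the estimated reads came to 29.0 in all reaggregates and 9.01 in all flat cultures. The log2 fold change was 0.52 (95% confidence interval 0.01 to 1.02, limma adjusted p = 0.110, exact permutation p = 0.0429), and *Hey1* was called in none of the settings. *Heyl*, on chr4:122910799-122927118, was 0.108 RPM in reaggregate 5, an estimated 1 read, and 0 in the other 9 libraries, below the floor of 3 reads in each.

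*Maml3*, on chr3:51491533-51908813, a Mastermind-like coactivator of the Notch transcription complex, was higher in every reaggregate. It measured 10.8 RPM in the lowest reaggregate, 12.2 in the median and 22 in the highest. In flat cultures 1 to 4 it measured 3.68, 2.26, 6.47 and 2.19 RPM. The groups did not overlap, and reaggregates 3 and 4 were the highest, where the receptors were lowest. Reaggregates averaged 14.4 ± 4.51 RPM (SD, n = 6) against 3.65 ± 2.0 RPM in flat cultures (SD, n = 4), with a log2 fold change of 1.91 (limma SE 0.31, adjusted p = 0.00157, exact permutation p = 0.00476, the smallest that the splits can give). The call held in all 27 alternative settings, with log2 fold changes of 1.41 to 2.40, and with consecutive reaggregates averaged its adjusted p in limma was 0.0393.

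Levels were compared between genes as RPM per kb of exon. In reaggregates *Jag1* led at 42.3 ± 5.69 RPM per kb (SD, n = 6), with a range of 36.4 to 50.1 that lay above the 26.2 to 35.3 of *Notch3*. *Notch3* averaged 30.4 ± 3.78 RPM per kb, *Hes1* 22 ± 5.26 and *Notch2* 17.2 ± 3.23 (SD, n = 6 each). The ranges of *Notch3* and *Hes1* overlapped, as did those of *Hes1* and *Notch2*, whereas *Notch1*, at 8.41 ± 2.14 (SD, n = 6), lay below *Notch2* in all reaggregates. *Maml3* followed at 2.20 ± 0.690, and *Dll1*, *Jag2* and *Hey1* lay at 0.702, 0.319 and 0.265 RPM per kb with overlapping ranges. In flat cultures the receptors and *Jag1* were too variable for an order, since *Notch3* ran from 3.72 to 33.6 and *Jag1* from 1.54 to 28.8 RPM per kb.

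The proportions of the receptors gave the flat cultures a further difference. Of the summed RPM per kb of the 3 receptors, *Notch2* made up 27.5% to 31.6% in reaggregates. Its share was 18.5% in flat culture 1 and 14.8% in flat culture 3, but 53.8% and 50.4% in flat cultures 2 and 4, those labelled de Bruijn. *Notch3* made up 51.5% to 59.5% in reaggregates, and 67.4%, 40.6%, 71.6% and 43.1% in flat cultures 1 to 4. Reaggregates thus lay between the kinds of flat culture for both receptors, and neither share passed a test of reaggregates against flat cultures (exact permutation p = 0.643 for *Notch2* and 0.852 for *Notch3*, 3 shares tested). The share of *Notch1* was 11.9% to 17.0% in reaggregates and 14.1%, 5.6%, 13.7% and 6.56% in flat cultures 1 to 4 (exact permutation p = 0.0429).

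**Figure D3:**
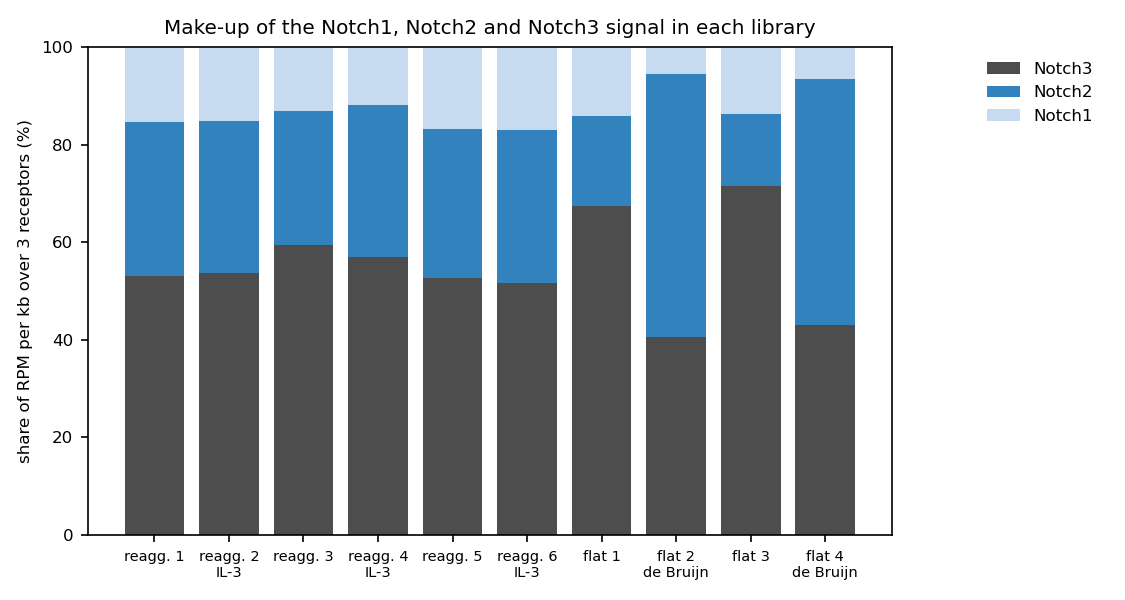
Share in percent (y axis, 0 to 100) of *Notch1*, *Notch2* and *Notch3* in their summed RPM per kb, with 1 stacked bar for each of the 10 libraries. The *Notch2* share is near 30% in all reaggregates, 50.4% and 53.8% in the flat cultures labelled de Bruijn and 14.8% and 18.5% in the other flat cultures.

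The flat cultures themselves were then compared by source label. In those labelled de Bruijn, *Notch1*, *Notch3* and *Jag1* were lower by log2 differences of −2.50, −2.08 and −2.86, and *Maml3* by −0.99, and for these 4 of the 9 genes both labelled cultures lay below both others. That separation was found in 34.1% of all genes tested. In limma, 0 of the 9 genes were called, while 3.87% of all genes were called lower and 1.82% higher. An unadjusted p under 0.05 was found in limma for 3 of the 9 (*Notch1* 0.00301, *Jag1* 0.00437 and *Notch3* 0.00956, with adjusted p of 0.0512, 0.0624 and 0.0914), beside 23% of all genes tested. With quantile normalization these 3 were called lower, as were 799 of all genes in place of 656. *Notch2* and *Hes1* differed by 0.30 (95% confidence interval −0.92 to 1.51) and 0.09 (−0.78 to 0.96) on the log2 scale. Mural cell markers, 8 in all, summed to 2828 and 2845 RPM in the flat cultures labelled de Bruijn, to 194 and 380 in the others and to between 88.0 and 465 in reaggregates. The sum followed *Acta2*, the smooth muscle actin gene (152, 2050, 310 and 1790 RPM in flat cultures 1 to 4), *Tagln* (18.7, 589, 39.8 and 940 RPM) and *Cspg4* (0, 164, 0.599 and 88.1 RPM). *Cnn1* was also higher in both cultures labelled de Bruijn, *Rgs5* and *Myh11* were lower in both, and *Mcam* and *Des* did not divide by the label. Of these markers, 1 of 7 tested (*Cnn1*) was called lower in reaggregates, beside 6.53% of all genes, a call lost with consecutive reaggregates averaged (limma adjusted p = 0.147) and against only the flat cultures without a source label (0.242). The part of the mural markers in these values was not tested. Adipocyte markers summed to 1385 and 1457 RPM in the cultures labelled de Bruijn, to 370 and 528 in the others and to between 255 and 691 in reaggregates, and their part was not tested either. Of 6 tested, *Fabp4*, *Cebpa* and *Pparg* were called lower in reaggregates, none of them with consecutive reaggregates averaged (limma adjusted p from 0.137 to 0.186) or against only the flat cultures without a source label, while *Adipoq* and *Lpl* gave log2 fold changes of 0.34 and −0.20. As only 2 cultures stand on each side, source and any other difference between these cultures cannot be told apart.

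Set against only the flat cultures without a source label, 5 of the 9 genes were called higher in reaggregates, *Notch2*, *Jag1*, *Dll1*, *Hes1* and *Maml3*, with log2 fold changes of 1.71, 1.16, 1.77, 1.53 and 1.41 in limma. Of all genes tested, 3.7% were called higher there. *Notch1* (log2 fold change 0.91, adjusted p = 0.101) and *Notch3* (0.48, adjusted p = 0.270) were not called by limma in this comparison. Set against only the cultures labelled de Bruijn, 6 were called, *Notch1*, *Notch2*, *Notch3*, *Jag1*, *Hes1* and *Maml3*, with log2 fold changes of 3.41, 1.41, 2.56, 4.03, 1.45 and 2.40, beside 15.2% of all genes tested. Both comparisons share the 6 reaggregates.

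IL-3, a cytokine that acts on blood progenitors, was compared within the reaggregates, in which 0 of the 9 genes and 0% of all genes were called (limma, 3 with against 3 without), with an adjusted p of 1 for each of the 9. An unadjusted p of 0.05 was reached by none of the 9 and by 0.402% of all genes tested. The 95% confidence interval of the log2 difference was −0.33 to 0.45 for *Jag1*, −0.43 to 0.32 for *Notch3*, −0.51 to 0.58 for *Notch2* and −0.82 to 0.67 for *Notch1*. With consecutive reaggregates as a block, limma again called 0 of the 9 genes and 0% of all genes, while 2 of the 9 had an unadjusted p under 0.05, beside 3.33% of all genes. *Hes1* was lower with IL-3 in 3 of 3 pairs, by log2 differences of −0.40, −0.25 and −0.16 (block estimate −0.27, SE 0.07, limma unadjusted p = 0.00853, adjusted p = 0.982). *Dll1* was also lower in 3 of 3 pairs, by −0.38, −0.63 and −0.28 (block estimate −0.43, limma unadjusted p = 0.0412, adjusted p = 0.982). *Jag1* differed by 0.06, 0.04 and 0.09 within pairs, less than the 0.41 that separated the highest and lowest pair means. Neither *Hes1* nor *Dll1* passed the correction.

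**Figure D4:**
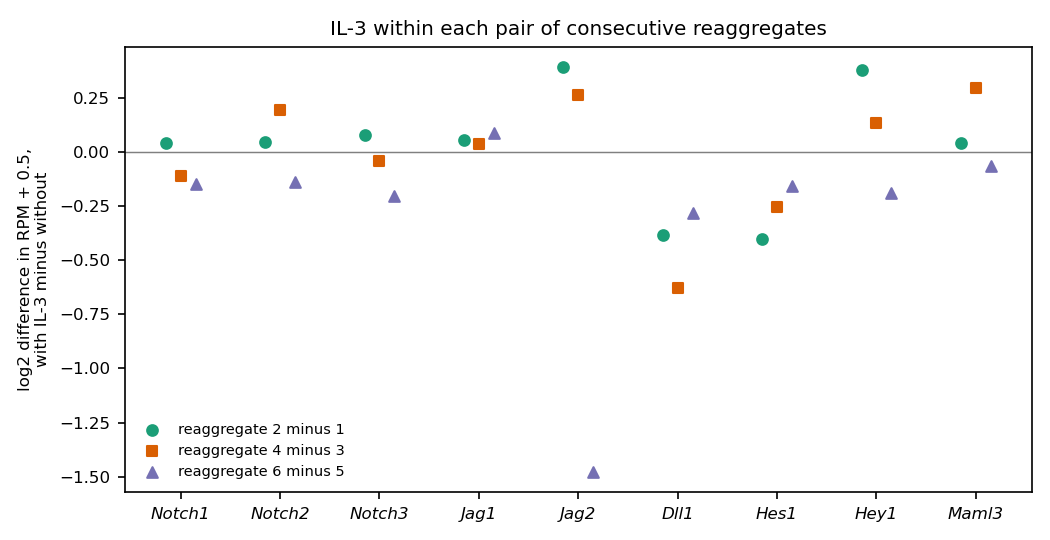
Log2 difference in RPM + 0.5 with IL-3 minus without (y axis) within each pair of consecutive reaggregates, 1 point per pair, for the 9 genes tested. The *Hes1* and *Dll1* points lie below 0 in 3 of 3 pairs, and the single large difference of *Jag2*, −1.48, is that of reaggregates 5 and 6, where reaggregate 6 held an estimated 1 read.

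The rest of the pathway was described in 6 lists by role, with 56 genes in all, 55 of them in the table and 46 tested. Of these 46, 5 rose, 1 fell and 40 were not called, beside 7.32% of all genes tested that were called higher and 6.53% lower, and their median log2 fold change was 0.48. With consecutive reaggregates averaged, 1 of the 46 was called higher, beside 1.9% of all genes tested. Of the 3 tested among the other receptors and ligands, *Notch4*, the receptor known from endothelium, was at 0.15 ± 0.227 RPM in flat cultures (SD, n = 4) and rose to 0.906 ± 0.318 RPM after reaggregation (SD, n = 6), with a log2 fold change of 1.14 (limma adjusted p = 0.00721). Its flat cultures measured 0, 0, 0.479 and 0.121 RPM, 3 of the 4 below 3 reads, and against only the flat cultures without a source label the adjusted p in limma was 0.0588. *Dlk2*, a Delta-like protein without the domain that activates receptors, was at 3.92 ± 3.30 RPM in flat cultures (SD, n = 4) and fell to 0.687 ± 0.455 RPM after reaggregation (SD, n = 6), with a log2 fold change of −1.61 (limma adjusted p = 0.0317). Its flat cultures measured 1.15, 5.90, 1.09 and 7.53 RPM, and only those labelled de Bruijn lay above all reaggregates. Against only the other flat cultures the log2 fold change was −0.53 (limma adjusted p = 0.337). Neither call held with consecutive reaggregates averaged (limma adjusted p = 0.0639 and 0.160).

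With all libraries, none of the 10 genes of receptor cleavage was called, with a median log2 fold change of 0.35. The highest was *Furin*, the protease that cuts the receptor precursor, at 0.84 (limma adjusted p = 0.0219, under 2-fold, and 0.139 with consecutive reaggregates averaged). Against only the flat cultures without a source label it reached 1.04 (limma adjusted p = 0.0409), past both thresholds. The lowest was *Aph1c*, a γ-secretase subunit, at −0.22. Of the 4 tested genes of receptor glycosylation none was called, and their median was −0.04. The sugar transferase genes *Rfng* (0.97) and *Poglut1* (−0.34) marked the ends of that list, and *Mfng* was listed at 0 in all libraries. In endocytosis and turnover, 3 of 11 tested rose and none fell (1 of 11 with consecutive reaggregates averaged, against 7.32% and 1.9% of all genes), with a median of 0.67 and the lowest value in *Neurl1a* (−0.22).

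The highest log2 fold change in the lists was that of *Dtx4*, an E3 ubiquitin ligase of the Deltex family. *Dtx4* measured between 52.6 and 89.9 RPM in reaggregates and 9.21, 2.62, 12.1 and 2.55 RPM in flat cultures 1 to 4, without overlap. Reaggregates averaged 75.2 ± 17.1 RPM (SD, n = 6) against 6.62 ± 4.81 RPM in flat cultures (SD, n = 4), with a log2 fold change of 3.66 (limma adjusted p = 0.00018), larger than that of any of the 9 genes tested above in the same fit, and the call held with consecutive reaggregates averaged (limma adjusted p = 0.0138). *Dtx3*, of the same family, and *Mib2*, a ligase that promotes ligand endocytosis, rose by log2 fold changes of 1.80 and 1.35 (limma adjusted p = 0.0139 and 0.0147), with flat culture 3 within the range of the reaggregates in both, and neither call held with consecutive reaggregates averaged (limma adjusted p = 0.0844 and 0.111) or against only the flat cultures without a source label (0.151 and 0.176).

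In the nuclear complex, 1 of 16 genes rose and none fell, about the share of all genes called higher (7.32%), with a median log2 fold change of 0.62. The gene that rose was *Maml1*, a coactivator like *Maml3*, with a log2 fold change of 1.12 (limma adjusted p = 0.00537, 0.0738 with consecutive reaggregates averaged). *Maml2* gave 0.98 and missed the 2-fold threshold. *Rbpj*, which binds DNA for the complex, had the lowest value of the list. It measured between 120 and 145 RPM in reaggregates and 253, 193, 330 and 160 RPM in flat cultures 1 to 4, without overlap. Its log2 fold change was −0.76 (limma adjusted p = 0.0113), which did not reach 2-fold, and with consecutive reaggregates averaged the adjusted p in limma was 0.118. Against only the flat cultures without a source label it was −1.12 (limma adjusted p = 0.00108), past both thresholds for a lower call. Among the other HES and HEY genes, *Hes7* (0.80) and *Hes6* (0.35) were tested and not called, *Nrarp* was listed at 0 in all libraries and *Hes5* was not analysed here.

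**Figure D5:**
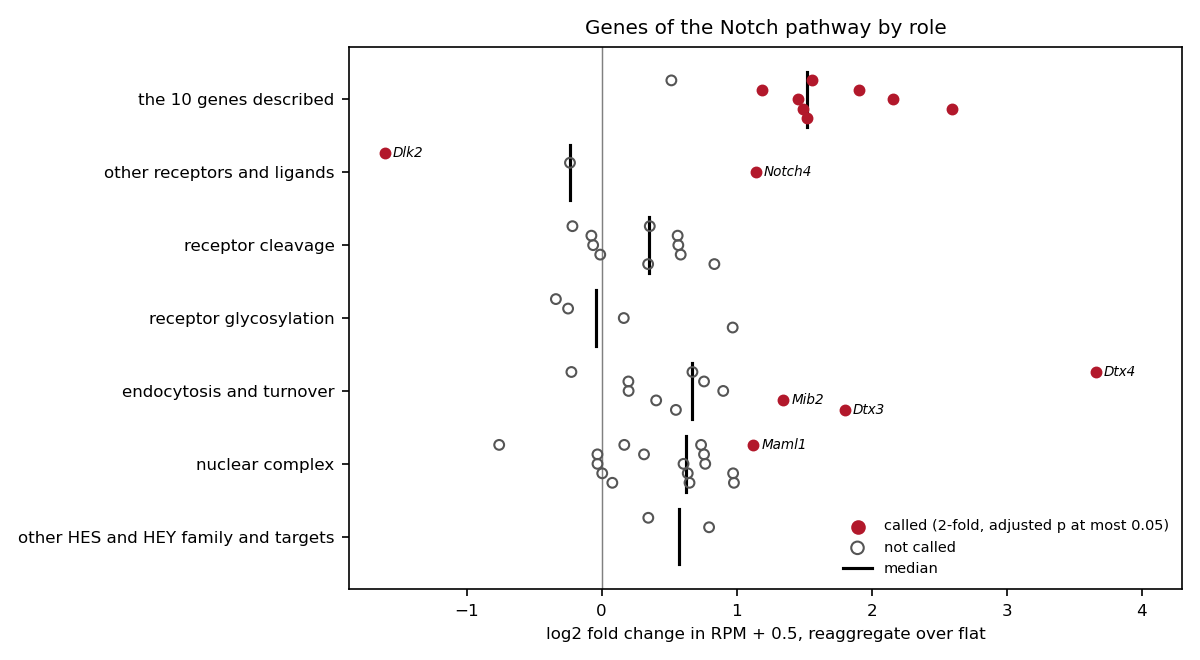
Log2 fold change in RPM + 0.5, reaggregates over flat cultures (x axis), of the genes tested in each role of the pathway (y axis), with filled points for genes called, open points for the others and a vertical line for the median of each row. The 9 tested among the 10 genes described have a median of 1.52, the other lists have medians between −0.23 and 0.67, and *Dtx4* stands furthest to the right at 3.66.

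Immediate early genes, which respond to stress and dissociation, were set beside these results. Their 8 members summed to between 2000 and 2526 RPM in reaggregates and to 470, 795, 2898 and 859 RPM in flat cultures 1 to 4, and 4 of the 8 were called higher in reaggregates (*Fos*, *Fosb*, *Jun* and *Atf3*), beside 7.32% of all genes. Only *Atf3* was called with consecutive reaggregates averaged, beside 1.9% of all genes. Flat culture 3, with the highest sum, was also the flat culture with the highest *Notch1*, *Notch3*, *Jag1* and *Maml3*, but it had the lowest *Hes1*. Only for reaggregates do the study's methods describe enzymatic dissociation before RNA extraction. The part of these genes and of that step in the result was not tested.

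For the most abundant gene of each role, the genes of at least 10 RPM with the most similar pattern over the 10 libraries were identified from the root mean square difference of centred log2 values, among 10219 genes. Nearest to *Notch3* were *Robo1*, a receptor for Slit proteins (0.135), *Arrb1* (0.181) and *Cdon* (0.188). Nearest to *Jag1* were *Ednra*, the endothelin receptor A (0.222), *Pcdh18* (0.293) and *Lmo7* (0.302). Nearest to *Hes1* were *Tmem119* (0.221), the lysosomal protease gene *Ctsb* (0.244) and *AL929546.1* (0.246), and nearest to *Maml3* were the protocadherin *Pcdhb16* (0.158), *Rnf122* (0.18) and *Tcf4* (0.211). The median difference over all these genes was 1.07 for *Notch3*, 1.60 for *Jag1*, 0.868 for *Hes1* and 1.06 for *Maml3*. Centring was over all 10 libraries, so the patterns include the differences between reaggregates and flat cultures and between source labels. The 10 points behind each of these values share libraries and depth.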

How the data were processed

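RNA was extracted and sequenced by the authors, who aligned reads to NCBI37/mm9 (TopHat 1.2.0, per the submitters' processing notes) and summed them per Ensembl gene in GeneProf, dividing reads with several matches among genes. The authors deposited 1 RPM value per gene and library, given to 3 significant digits. They also deposited a log2 fold change and an adjusted p-value from their DESeq comparison, and these columns were not used. No column of values was left without a library (0 unmatched).

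Because the values are RPM and only part of them were whole multiples of 1 read, limma 3.58.1 in R 4.3.3 (linear model, empirical Bayes with a mean-variance trend) was fitted to log2(RPM + 0.5) in place of a count test, over the 16933 of 26888 genes that passed 0.5 RPM in any library, with Benjamini-Hochberg adjustment over all of them. The script was tested on simulated data. The 9 members tested were tested a second time by exact permutation, two-sided, over all 210 splits into 6 and 4 libraries, which treats consecutive reaggregates as independent. IL-3 was compared within reaggregates and source label within flat cultures. Altogether 27 alternatives were fitted (pseudocounts of 0.1, 1 and 2, filters, scalings, subsets and libraries left out among them), of which 1 (without reaggregates 5 and 6) was chosen after seeing the data. The members and lists were chosen with earlier results of these data known. All 10 members are described; further pathway genes were named when called or at the ends of their list, as were the 3 genes nearest in pattern for the most abundant member of each role. *Maml2* and the genes at 0 were named after their values were seen. Gene coordinates and exon lengths came from an annotation of NCBIM37 that is newer than the authors' Ensembl version, and promoter windows from RefSeq. Plots used matplotlib 3.10.9 (Python 3.11.15).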

Additional observations from a re-analysis of the deposited data

Results flagged for a closer look

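*Heyl* in the reaggregates was the only value to stand apart from its group by Dixon's criterion: reaggregate 5 measured 0.108 RPM, an estimated 1 read, and the other reaggregates were at 0. With every other reaggregate at 0, any value above 0 would meet that criterion, so the zeros fixed the flag in advance. Of 19 groups of values examined, 0.95 would be flagged by chance, a figure that does not apply to values mostly at 0.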

How the results depend on the processing

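The number of the 9 genes called higher in reaggregates, 8 with all libraries, was 3 with consecutive reaggregates averaged, 5 with these pairs as a random effect, 4 with only the reaggregates without IL-3, 3 with only those with IL-3, and 5 against only the flat cultures without a source label. The calls over all genes fell as well, from 1239 to 321, 769, 345, 277 and 627 in the same order, in settings with fewer samples or correlated errors. Leaving out 1 library gave 6 to 8, and leaving out reaggregates 5 and 6 gave 7. *Notch2*, *Hes1* and *Maml3* were called in all 27 alternatives, *Notch1* in 23, *Jag1* in 24, *Dll1* in 21, *Notch3* in 16 and *Jag2* in 11. None of the 9 changed direction in this comparison. Same-numbered reaggregates and flat cultures shared no more than a number (correlations of their deviations −0.04, −0.21, 0.07 and 0.15), and a replicate block left the count at 8. That block takes no information from reaggregates 5 and 6, which have no flat culture of the same number, and it gave 1885 genes higher and 1154 lower, close to the 1898 and 1169 found by leaving these reaggregates out without a block (1239 and 1106 with all libraries). Between flat cultures of different source label, quantile normalization called 3 of the 9 genes lower (*Notch1*, *Notch3* and *Jag1*), where the count was 0 without it (over all genes 799 lower and 646 higher, against 656 and 309), and the cause was not tested. Differences there that were not called changed sign when 1 library was left out: *Notch2* ranged from −0.24 to 0.83 (below 0 without flat culture 1 or 2), *Jag2* from −0.40 to 0.57 (below 0 without flat culture 1), *Hes1* from −0.13 to 0.30 (below 0 without flat culture 2 or 3) and *Hey1* from −0.012 to 0.77 (below 0 without flat culture 1). Against the flat cultures labelled de Bruijn the median log2 fold change of all genes was 0.13, against 0.04 with all libraries. Depth limits *Jag2*, *Dll1*, *Hey1*, *Heyl* and *Notch4*.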
